A study of Mus musculus with 5 samples.

Results

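The genes described here are the mouse Zfp genes, those whose symbol is Zfp followed by a number, in tibialis anterior (TA) muscle. They were chosen by name and by level: the mean over the 5 libraries had to reach 1 FPKM, a fragment count divided by transcript length and a measure of library size. Of the 17015 genes in the table, 376 carry such a name and 246 of these met the level. The remaining 130 lay below it, and 56 of those still entered the tests. The level rule used all libraries together and not the difference between groups, so the levels are given as a description and only the difference between groups was tested. Just outside the threshold were Zfp951, Zfp688 and Zfp945 at means of 0.976, 0.993 and 0.994 FPKM, and just inside it were Zfp354b, Zfp329 and Zfp772 at 1.01, 1.01 and 1.02 FPKM.

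RNA was sequenced from TA muscle of male mice at 8 weeks of age. The WT control label stands on 3 libraries, and the skmNrip1-/- label on 2. The skmNrip1-/- mice came from Nrip1 fl/fl mice (C57BL/6J), with loxP sites around exon 4, crossed to C57BL/6JN mice that carry a Cre driven by the myogenin promoter, which is active in the skeletal muscle lineage and leaves the gene in the other cells of the tissue. The controls were littermates without Cre. Nrip1 encodes RIP140, a corepressor of nuclear receptors that control fuel use and mitochondria, and the comparison asks which transcripts differ in muscle when it is lost. The study's legend gives 3 mice per group, and the comparison here rests on 3 against 2 libraries.

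Zfp is the mouse symbol for zinc finger protein, and it is a name and not a single family. Most of the encoded proteins carry C2H2 fingers, short folds in which 2 cysteines and 2 histidines hold a zinc ion and a helix reads a few bases of DNA. A large class adds a KRAB domain, which recruits the corepressor Trim28 (KAP1) and through it Setdb1 and HP1 proteins, and many KRAB genes lie in clusters of close copies and silence retroelements. Others act on RNA, such as the CCCH proteins of the Zfp36 group, which bind AU-rich elements and bring the CCR4-NOT deadenylase to mRNA.

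Nrip1 itself stood at 4.64, 7.69 and 6.55 FPKM in the controls, replicates 1 to 3, and at 25.3 and 22.5 FPKM under the skmNrip1-/- label, in its replicates 1 and 2. It was higher under the knockout label (log2 fold change 1.94, SE 0.21, limma adjusted p = 0.0261), against what the label states. The paper checked this mouse line by Nrip1 expression and a RIP140 blot in gastrocnemius and heart, tissues other than the TA used here. It also compared Nrip1 between WT and skmNrip1-/- mice by RT-qPCR. The deleted exon holds the start and stop codons, and the paper places the second loxP site downstream of the 3′-UTR. The deposited value is given per gene, so reads from exons inside and outside the deletion cannot be told apart here. Why Nrip1 was higher was not tested, and neither was the assignment of the labels to the libraries. Because Nrip1 did not follow the label, the libraries are called by their labels throughout. Skeletal muscle markers summed to between 74816 and 101805 FPKM in WT control and between 68503 and 70809 FPKM under the knockout label, while B and T cell markers summed to 0.357 to 0.534 and 0.401 to 0.422 FPKM. The 10 muscle markers differed unequally, from -0.77 in Actn3 to 0.05 in Myh1, with a median of -0.22. Of these, 1 (Actn3) was lower at an unadjusted p of 0.05 or less, beside 5.33% of all genes. Red cell markers summed to 511 to 764 against 827 to 996 FPKM, with 3 of the 5 genes higher at an unadjusted p of 0.05 or less, and transcripts of mitochondrial DNA took 45.4% to 50.7% against 58.6% to 60.9% of all FPKM. The part of these differences in the Zfp values was not tested, and in whole muscle fewer cells of a type and less RNA per cell cannot be told apart. The summed FPKM of a library ran from 969144 to 1288040, so rescaling each library to TPM, so that every library has the same sum, moved the median of all genes by -0.29 on the log2 scale. Directions are therefore given relative to the median of all genes tested, which was -0.00 in the deposited scaling. Rescaling by the median of ratios left it at -0.00 and left the median of the 246 Zfp genes at 0.05, as in the deposited scaling. The deposited values thus behave as if already scaled in this way, and a median of all genes near 0 follows from such a scaling.

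The Zfp genes were expressed at low levels. Their median mean was 2.76 FPKM, against 5.92 FPKM over the 12148 genes tested, and 176 of the 246 lay under 5 FPKM. Only 30 reached 10 FPKM and 9 reached 20 FPKM, while none was listed at 0 in any library. Zfp106 stood far above the rest. It encodes a protein that binds RNA and whose loss in mice causes neuromuscular degeneration, and it was measured at 142, 267 and 236 FPKM in WT control and at 154 and 169 FPKM under the knockout label. The groups overlapped, since WT control replicate 1 was the lowest of all 5 libraries (log2 fold change -0.36, SE 0.26, adjusted p = 0.663). Zfp651 followed at 59.1, 60.2 and 60.4 against 54.9 and 57.4 FPKM, with the knockout-labelled libraries both below the controls by a small margin (log2 fold change -0.09, SE 0.09, adjusted p = 0.772). Zfp91, an E3 ubiquitin ligase of the noncanonical NF-kB pathway, was at 56.2, 60.2 and 54.7 against 53.3 and 58.7 FPKM (log2 fold change -0.03, SE 0.10, adjusted p = 0.950). Zfp967, the KRAB gene with the highest value, stood at 29.8, 33.98 and 31.4 against 35.4 and 35.3 FPKM (log2 fold change 0.16, SE 0.10, adjusted p = 0.628), and 100% of its 31-base transcript words also occur in Zfp968, so reads of these copies cannot be told apart.

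**Figure D1:**
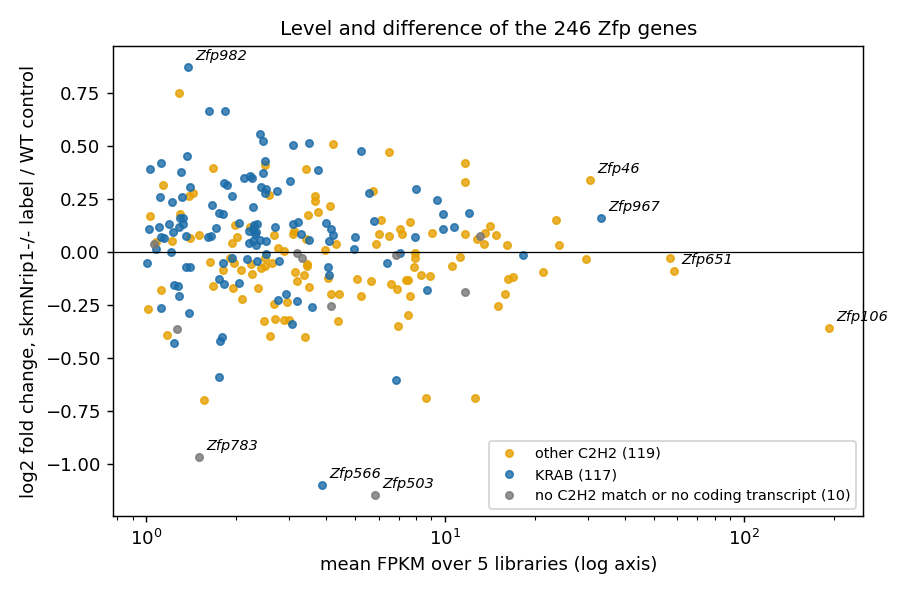
Mean FPKM over 5 libraries (x axis, log scale) against the log2 fold change of skmNrip1-/--labelled over WT control libraries (y axis), 1 point for each of the 246 Zfp genes, colored by protein class. Most points lie under 5 FPKM and near 0, Zfp106 is alone at 193.6 FPKM, and Zfp503 and Zfp566 are the lowest points at -1.15 and -1.10.

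No Zfp gene passed the test between the groups. Of 246 tested with limma, with Benjamini-Hochberg adjustment over all 12148 genes, 0 were called higher and 0 lower, where a call needs a fold of at least 1.2 together with an adjusted p that does not exceed 0.05. Over all genes the same rule called 45 higher (0.37%) and 10 lower (0.0823%), and the smallest adjusted p of a Zfp gene was 0.178, for Zfp783. At an unadjusted p of 0.05 or less there were 8 higher and 10 lower, which are 3.25% and 4.07% of the members against 6.57% and 5.33% of all genes. The libraries of the groups did not overlap for 35 members that were higher (14.2%) and 37 that were lower (15.04%), close to the shares of all genes, 15.8% and 14.4%. The sizes were small as well. The difference was under 1.2-fold for 177 of the 246 genes, reached 1.5-fold for 12 and reached 2-fold for 2, Zfp503 and Zfp566. The median size of the difference was 0.14 on the log2 scale, against 0.15 over all genes, with a median SE of 0.18 against 0.16. With these errors, differences of the size seen in most Zfp genes were not detectable with 5 libraries.

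The 18 genes at an unadjusted p of 0.05 or less are described by their values, without any claim that they changed. Of the 8 with higher values under the knockout label, 6 carry a KRAB domain, as do 4 of the 10 with lower values. These are 5.13% and 3.42% of the 117 KRAB genes, beside 6.57% and 5.33% of all genes. Among the 8 higher genes Zfp982 had the largest ratio, at 1.03, 1.25 and 0.726 FPKM in WT control and 1.38 and 2.52 FPKM in the libraries labelled skmNrip1-/- (log2 fold change 0.87, SE 0.32, adjusted p = 0.359). Both knockout-labelled libraries lay above every control, and replicate 2 stood well above replicate 1. Zfp28 showed the same order at 1.02, 1.53 and 1.32 against 1.74 and 2.47 FPKM (log2 fold change 0.66, SE 0.24, adjusted p = 0.351). Zfp874a was at 2.05, 2.19 and 1.76 against 2.74 and 3.22 FPKM (log2 fold change 0.55, SE 0.16, adjusted p = 0.275), and Zfp93 at 2.08, 1.88 and 2.26 against 2.52 and 3.60 FPKM (log2 fold change 0.52, SE 0.19, adjusted p = 0.359). In all 4 of these genes replicate 2 was the higher of the pair labelled skmNrip1-/-.

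Zfp110, also known as NRIF, a protein that interacts with the neurotrophin receptor p75NTR, was measured at 4.09, 5.24 and 4.21 FPKM in WT control and at 5.67 and 6.97 FPKM under the knockout label (log2 fold change 0.48, SE 0.16, adjusted p = 0.329). Zfp451, a SUMO ligase, had tighter values under the knockout label, 4.02 and 3.97 FPKM, above the controls at 2.67, 3.47 and 2.99 FPKM (log2 fold change 0.39, SE 0.15, adjusted p = 0.384). Zfp46 was the most abundant of the 18. It stood at 28.7, 28.1 and 26.1 FPKM in WT control and at 35.9 and 33.9 FPKM under the knockout label, a gap larger than the range of the controls (log2 fold change 0.34, SE 0.10, adjusted p = 0.282). Zfp963 was at 1.99, 1.84 and 2.14 against 2.63 and 2.53 FPKM (log2 fold change 0.36, SE 0.15, adjusted p = 0.403), and 40.8% of its exon bases lie under exons of Gm20422 on the same strand, so its reads are uncertain.

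Of the 10 genes with lower values under the knockout label, Zfp503 had the largest ratio. Zfp503, also named Nolz1, is a transcriptional repressor of limb and brain development, and it was measured at 6.30, 7.68 and 8.27 FPKM in WT control and at 2.39 and 4.46 FPKM under the knockout label (log2 fold change -1.15, SE 0.26, adjusted p = 0.185). The highest knockout-labelled library lay under the lowest control. The KRAB gene Zfp566 was at 4.81, 3.77 and 6.24 against 2.96 and 1.63 FPKM (log2 fold change -1.10, SE 0.30, adjusted p = 0.244), and 17.9% of its exon bases lie under exons of Gm26920. Zfp783, which has no coding transcript in the annotation, was at 2.35, 1.77 and 1.55 against 0.941 and 0.868 FPKM (log2 fold change -0.97, SE 0.22, adjusted p = 0.178). In each of these 3 genes both knockout-labelled libraries lay below every control.

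Zfp668, a protein linked to the response to DNA damage, was at 1.38, 1.82 and 2.405 FPKM in WT control and at 1.08 and 1.09 FPKM under the knockout label (log2 fold change -0.70, SE 0.25, adjusted p = 0.344). Zfp467, which favors fat over bone formation in marrow stroma, was at 12.8, 10.1 and 7.93 against 6.74 and 5.72 FPKM (log2 fold change -0.69, SE 0.21, adjusted p = 0.282). Zfp771 was at 19.3, 11.5 and 14.2 against 8.26 and 9.90 FPKM (log2 fold change -0.69, SE 0.22, adjusted p = 0.302). WT control replicate 1 was the highest library for both Zfp467 and Zfp771. Zfp773 was at 9.60, 6.25 and 8.05 against 5.11 and 5.14 FPKM (log2 fold change -0.60, SE 0.19, adjusted p = 0.292). Zfp707 was at 2.19, 1.79 and 2.13 against 1.39 and 1.25 FPKM (log2 fold change -0.59, SE 0.17, adjusted p = 0.269). The smallest ratios were those of Zfp316, at 1.90, 1.82 and 2.19 against 1.38 and 1.51 FPKM (log2 fold change -0.42), and Zfp512b, at 7.50, 7.60 and 7.84 against 6.04 and 5.93 FPKM (log2 fold change -0.35). Zfp512b had the narrowest control range of these 10 genes. Without replicate 2 labelled skmNrip1-/-, 3 of the 18 genes kept an unadjusted p of 0.05 or less, and Zfp963 did not keep it in any fit that left out a library.

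**Figure D2:**
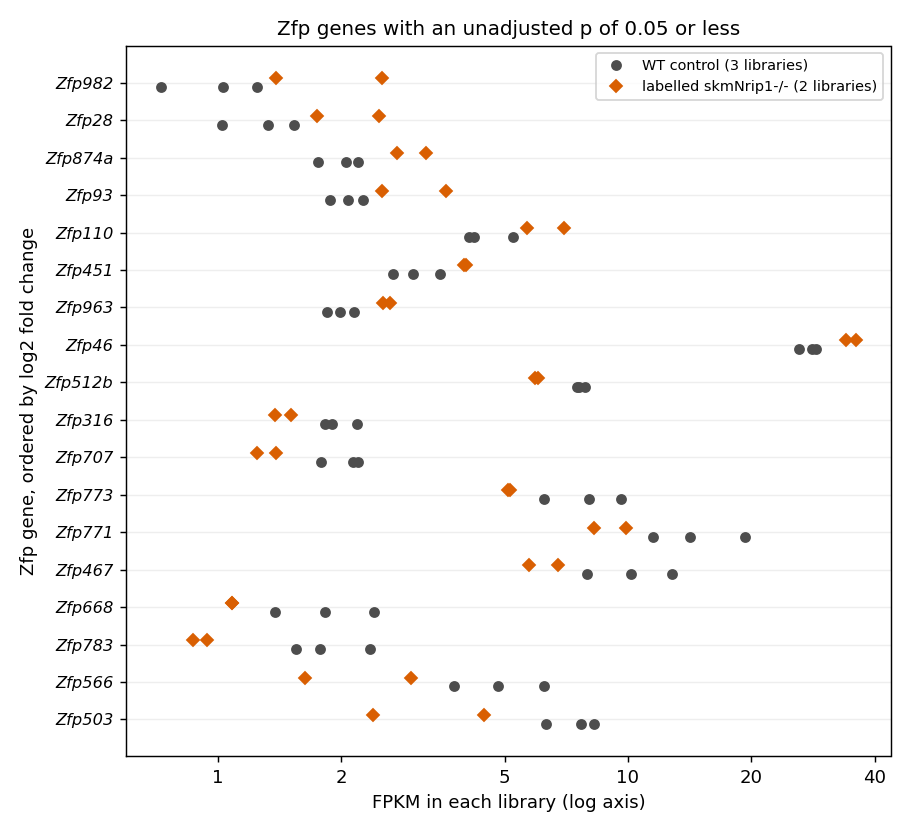
FPKM in each library (x axis, log scale) of the 18 Zfp genes at an unadjusted p of 0.05 or less, ordered by log2 fold change from Zfp982 at the top to Zfp503 at the bottom. Circles are the 3 WT control libraries and diamonds the 2 labelled skmNrip1-/-, and the groups do not overlap in any of the 18 rows, none of which passed the adjusted test.

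Of these 18 genes, 16 encode C2H2 fingers, while Zfp503 has no match to the finger spacing and Zfp783 no coding transcript. To show how the fingers compare, the middle C2H2 finger with the linker that follows is printed for 6 of the 18, namely the 3 KRAB genes with the largest positive log2 fold change and the 3 C2H2 genes with the largest negative one, 84 bases each, read from GENCODE M21 transcripts on GRCm38 in the 5′ to 3′ direction. Capitals mark the codons of the 2 cysteines and 2 histidines that hold the zinc ion. The fingers lie at chr4:147512917-147513000 (plus strand) for Zfp982, chr7:6394293-6394376 (plus strand) for Zfp28, chr13:67442562-67442645 (minus strand) for Zfp874a, chr7:30077915-30077998 (minus strand) for Zfp566, chr7:127867084-127867167 (minus strand) for Zfp668 and chr6:48438565-48438648 (minus strand) for Zfp467, all in coding exons.
Zfp982: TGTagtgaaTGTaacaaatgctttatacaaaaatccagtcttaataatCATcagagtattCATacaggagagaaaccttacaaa
Zfp28: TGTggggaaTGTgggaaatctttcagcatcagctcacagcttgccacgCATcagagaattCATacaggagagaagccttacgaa
Zfp874a: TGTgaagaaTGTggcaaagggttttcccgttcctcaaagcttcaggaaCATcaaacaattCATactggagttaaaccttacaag
Zfp566: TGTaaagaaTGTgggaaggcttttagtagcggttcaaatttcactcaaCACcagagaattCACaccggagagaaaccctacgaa
Zfp668: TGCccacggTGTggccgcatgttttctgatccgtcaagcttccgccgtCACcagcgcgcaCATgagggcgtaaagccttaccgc
Zfp467: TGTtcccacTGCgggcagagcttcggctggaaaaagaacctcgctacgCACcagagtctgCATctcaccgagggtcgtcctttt
The capitals fall at the same places in all 6, and the letters between them differ in base composition. The finger of Zfp982 is 29.8% G and C and that of Zfp874a 40.5%, while those of Zfp668 and Zfp467 are 61.9% and 57.1%. Zfp28 and Zfp566 lie between, at 47.6% and 42.9%. The whole transcripts run from 38.6% GC in Zfp982 and 39.9% in Zfp874a over 46.3% in Zfp28, 48.5% in Zfp566 and 51.4% in Zfp668 to 57.9% in Zfp467. Zfp28 and Zfp566, and likewise Zfp668 and Zfp467, stand in the reverse order of their fingers.

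The proteins were sorted by their translated GENCODE sequences, a feature that the choice of genes did not use. A KRAB box was counted where at least 11 of 15 conserved A-box positions matched, and a C2H2 finger where cysteines and histidines stood at the usual spacing. There were 117 KRAB genes, 119 other C2H2 genes, 7 without a C2H2 match and 3 without a coding transcript. Of the 243 coding genes, 19 scored from 6 to 10 positions, near the limit, and the median of the KRAB class was 0.11 also with limits of 8 or 13 positions. The 7 without a match were Zfp330, Zfp36, Zfp36l1, Zfp36l2, Zfp503, Zfp703 and Zfp839. KRAB genes had more fingers, with a median of 11 against 7 in the other C2H2 genes, and lower levels, with a median of 2.28 against 3.68 FPKM.

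The KRAB genes lay on the higher side under the knockout label and the other C2H2 genes slightly on the lower side. The median log2 fold change of the KRAB genes was 0.11, with 83 of 117 above 0, and that of the other C2H2 genes was -0.03, with 54 of 119 above 0, against a median of -0.00 and 49.9% above 0 over all genes. Among KRAB genes 24 were higher without overlap (20.5%) and 12 lower (10.3%), and among the other C2H2 genes 11 were higher (9.24%) and 22 lower (18.5%), beside 15.8% and 14.4% of all genes. On the TPM scale the KRAB median was -0.18 and the other C2H2 median -0.33, which lay 0.11 above and 0.03 below the median of all genes on that scale. The difference between the classes was not tested. The libraries did not separate by group for the KRAB class. Its median centered level was -0.08, 0.04 and -0.09 in WT control and 0.02 and 0.13 under the knockout label, so WT control replicate 2 lay above replicate 1 labelled skmNrip1-/-. Leaving out each library in turn gave KRAB medians between 0.05 (without replicate 2 labelled skmNrip1-/-) and 0.16 (without its replicate 1), with 0.06 without WT control replicate 3. For the other C2H2 genes the centered medians were 0.01, 0.03 and 0.01 against -0.02 and -0.00, with the groups apart by a small margin, and the medians of the differences ran from -0.06 to -0.01.

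**Figure D3:**
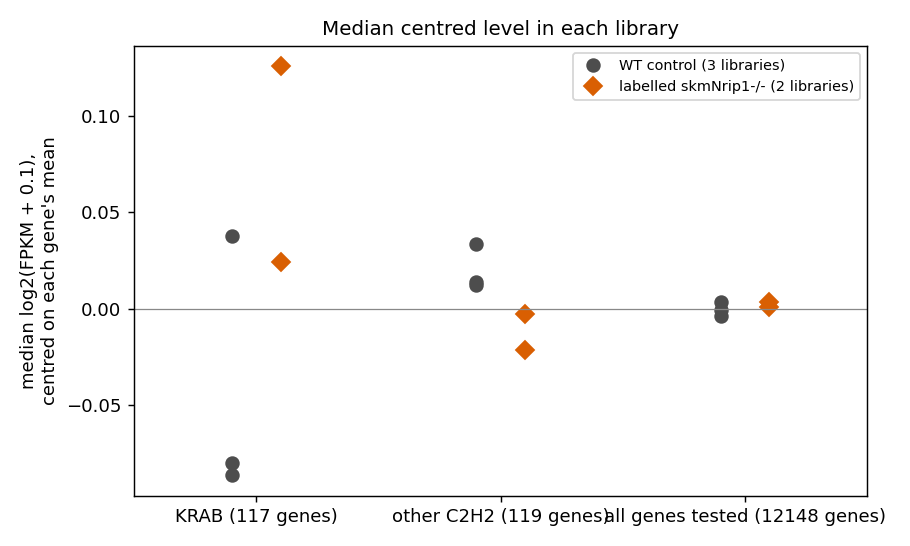
Median of log2(FPKM + 0.1), centered on each gene's mean, in each library (y axis) for 117 KRAB genes, 119 other C2H2 genes and all 12148 genes tested. Circles are WT control and diamonds the libraries labelled skmNrip1-/-, and for KRAB genes WT control replicate 2 at 0.04 lies above 1 of the diamonds at 0.02.

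GC content of the transcripts moved with these differences. The median transcript GC was 41.7% in KRAB genes and 50.03% in the other C2H2 genes, against 49.8% over all genes. Across the 246 Zfp genes Spearman's rho between GC content and the log2 fold change was -0.45, and across 12138 genes with an annotated transcript it was -0.30. These points share the same 5 libraries, and the coefficients are a description. Zfp genes of at most 44% GC had a median difference of 0.09, those from 44% to 52% of 0.06 and those above 52% of -0.14, beside 0.09, 0.02 and -0.09 for all genes in the same ranges. Within the range of at most 44% GC, the 81 KRAB genes had a median of 0.11 and the 31 other C2H2 genes of 0.08. From 44% to 52% GC the 30 KRAB genes had a median of 0.12 and the 41 other C2H2 genes of 0.0025, and after the GC adjustment described next these were 0.07 and -0.02. Above 52% GC the 6 KRAB genes stood at -0.20 and the 47 other C2H2 genes at -0.12. When the trend of each library on GC content was removed, the median was 0.01 in KRAB genes, -0.03 in the other C2H2 genes and -0.02 in all 246. After that adjustment the rho across Zfp genes was -0.09, and 64 of the 117 KRAB genes lay above 0. After it Zfp503 stood at -1.02, Zfp566 at -1.12 and Zfp982 at 0.75. The adjustment was chosen after seeing the data.

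**Figure D4:**
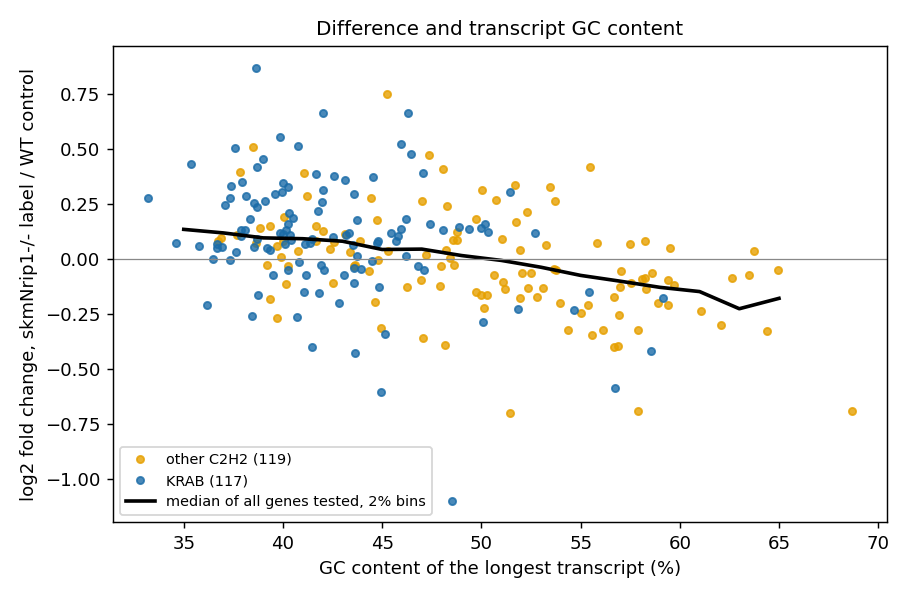
GC content of the longest transcript (x axis, %) against the log2 fold change (y axis) for 117 KRAB genes and 119 other C2H2 genes, with the median of all genes tested in bins of 2% as a line. Up to its last bins the line falls from left to right, through medians of 0.09 at or under 44% GC and -0.09 above 52%, and the KRAB genes sit mostly at the left end.

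Zfp genes with known roles outside KRAB repression were then taken by list. The CCCH proteins that shorten mRNA tails had small differences. Zfp36 (tristetraprolin) was at 5.99, 3.82 and 3.68 FPKM in WT control and at 3.95 and 3.38 FPKM under the knockout label, with overlapping groups (log2 fold change -0.26, SE 0.23, adjusted p = 0.738). Zfp36l1 and Zfp36l2 differed by -0.02 and -0.03 on the log2 scale. Of the 11 CCR4-NOT subunits that these proteins recruit, 10 lay above 0 with a median of 0.11, none was called, and Cnot2 alone had an unadjusted p of 0.05 or less (log2 fold change 0.35). Cnot6l, a catalytic deadenylase, had the largest value of the list at 0.37, and Cnot10 the smallest at -0.04.

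Among the 11 measured Zfp proteins of RNA binding, splicing or ribosomes, none had an unadjusted p of 0.05 or less, and 3 were lower without overlap, a count set beside the 14.4% of all genes. Zfp697 of that list was under the level threshold. Zfp598, the E3 ligase that marks collided ribosomes, was at 8.14, 7.35 and 8.78 FPKM in WT control and at 6.70 and 7.25 FPKM under the knockout label, just under the lowest control (log2 fold change -0.21, SE 0.12, adjusted p = 0.584). Zfp346, which binds double-stranded RNA, and Zfp638, which acts in splicing, were the others that did not overlap, at differences of -0.13 and -0.11. Zfp593, of the large ribosomal subunit, and Zfp385b, a relative of the RNA-binding Zfp385a, had the largest values in each direction, -0.40 and 0.47, with overlapping groups. Zfp622, which acts in maturation of the large ribosomal subunit, was at 11.4, 10.95 and 11.4 against 11.8 and 10.4 FPKM (log2 fold change -0.03, SE 0.11). Zfp207, a spindle assembly factor that also binds RNA, differed by 0.15, Zfp830 by 0.09, Zfp326 by 0.07 and Zfp385a by -0.09. Of 8 tested genes of the response to ribosome collision, 6 lay above 0 and none had an unadjusted p of 0.05 or less, with Ascc3 at 0.60 and Ascc1 at -0.17 as the ends.

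All 6 Zfp genes of a hand-written list with roles in fat cells or metabolic genes had lower values under the knockout label, with a median of -0.27. Of these 6, 4 did not overlap (14.4% of all genes were lower without overlap), while only Zfp467 had an unadjusted p of 0.05 or less and none was called. Zfp467 and Zfp746, both without overlap, also lie in the chromosome 6 cluster described below. On the TPM scale all 6 also lay below the median of all genes, but 5 of 6 did so in the fits without WT control replicate 1 or 3, without either library labelled skmNrip1-/-, or with the replicate number as a block. Zfp746 (PARIS), a repressor of the PGC-1α gene Ppargc1a, was at 4.63, 4.96 and 4.70 FPKM in WT control and at 3.31 and 4.32 FPKM under the knockout label (log2 fold change -0.33, SE 0.15, adjusted p = 0.463). Ppargc1a itself was at 5.50, 9.86 and 7.70 against 7.55 and 7.05 FPKM, with overlapping groups (log2 fold change -0.03, SE 0.23, adjusted p = 0.975). Of the related coactivators, Ppargc1b was at 3.39, 4.94 and 4.39 against 6.30 and 6.49 FPKM (log2 fold change 0.60, SE 0.17, adjusted p = 0.271), and Pprc1 differed by 0.05. Zfp407, which acts on PPARγ target genes in fat cells, was at 1.204, 1.49 and 1.22 against 1.001 and 0.931 FPKM (log2 fold change -0.39, SE 0.19, adjusted p = 0.496). Zfp521, which inhibits fat cell formation, had close values of 2.20, 2.23 and 2.24 against 1.88 and 1.91 FPKM (log2 fold change -0.22, SE 0.14, adjusted p = 0.599). Zfp423, which commits precursors to the fat lineage, and Zfp516, a brown fat regulator, overlapped between the groups. Zfp423 was at 4.17, 1.59 and 1.84 against 2.74 and 1.52 FPKM, so WT control replicate 1 alone set its range. Adipocyte markers summed to 8.18 to 14.9 FPKM in WT control and to 12.8 to 12.9 FPKM under the knockout label.

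Zfp genes that guard imprints or silence retroelements gave no call. Zfp445, which protects imprinted methylation together with Zfp57, was at 10.1, 11.8 and 9.31 FPKM in WT control and at 11.2 and 11.4 FPKM under the knockout label (log2 fold change 0.12, SE 0.13, adjusted p = 0.797). Zfp809, which silences murine leukemia virus elements, was at 2.97, 3.70 and 3.38 against 2.33 and 2.94 FPKM, without overlap but by a gap smaller than the control range (log2 fold change -0.34, SE 0.17, adjusted p = 0.491). Zfp568 and Zfp932 differed by -0.05 and -0.01, and Zfp57 and Zfp708 were under the level threshold. The machinery that KRAB proteins recruit gave no call either. Trim28 differed by -0.00 and Setdb1 by 0.15, while of 11 tested genes of this list Chd3, a nucleosome remodeler, alone had an unadjusted p of 0.05 or less. Chd3 was at 5.68, 5.87 and 5.62 against 3.72 and 4.90 FPKM (log2 fold change -0.41, SE 0.15, adjusted p = 0.347), and Atf7ip, a partner of Setdb1, had the largest value at 0.24. Zfp410, a dedicated activator of Chd4, was at 9.32, 7.59 and 6.98 against 7.33 and 8.45 FPKM (log2 fold change -0.01, SE 0.16), and Chd4 differed by -0.10.

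The list of promoter and chromatin Zfp proteins held 12 members, 6 above 0 and 6 below, with a median of 0.00 and none at an unadjusted p of 0.05 or less. Zfp292 of that list was under the level threshold and is not among the 12. It was at 0.795, 0.944 and 0.825 FPKM in WT control and at 1.13 and 1.11 FPKM under the knockout label, without overlap (log2 fold change 0.35, SE 0.20, adjusted p = 0.563). Zfp143, which binds promoters and chromatin loop anchors, was at 3.24, 3.35 and 3.30 FPKM in WT control and at 3.84 and 3.64 FPKM under the knockout label, above all controls (log2 fold change 0.18, SE 0.12, adjusted p = 0.640). Zfp219 and Zfp687 were lower without overlap, at differences of -0.30 and -0.21, a count set beside the 14.4% of all genes. Zfp687, Zfp592 and Zfp532 form a complex, and the latter pair differed by 0.04 and -0.07. The other members, Zfp148, Zfp217, Zfp281, Zfp335, Zfp462 and Zfp644, overlapped between the groups, with Zfp462 at the largest value of 0.41. Of 12 tested immediate early genes, 6 lay above 0 and 6 below, with a median of 0.02. Such genes are induced by contraction and handling, and a part of either in these values was not tested. At an unadjusted p of 0.05 or less 3 were higher, beside 6.57% of all genes, and none was called. These 3 were Fos, Egr1 at 0.57 and Ier3 at 0.29. Fos was at 1.03, 1.04 and 0.927 against 2.44 and 1.22 FPKM (log2 fold change 0.74, SE 0.30, adjusted p = 0.397), and Klf4 had the smallest value at -0.36.

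The variation within the controls was widest in Zfp125, Zfp507 and Zfp423. Zfp507 ran over 2.31, 3.73 and 7.05 FPKM in WT control, with 4.05 and 3.22 FPKM under the knockout label inside that range. Zfp125 ran over 0.662, 1.78 and 0.805 FPKM, with 1.05 and 0.988 FPKM inside it. In all 3 genes the spread within WT control was larger than any difference between the group means.

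Zfp genes lie in groups on the chromosomes, and 84 of the 246 fell in 11 clusters of at least 5 members with gaps of at most 500 kb (GENCODE M21 coordinates on GRCm38). The cluster with the lowest median was on chromosome 6, from 47835661 to 48623227, where 9 of 10 members lay below 0 and 7 were lower without overlap (14.4% over all genes), with a median of -0.28. It holds Zfp783 and Zfp467 described above, and Zfp746, Zfp775 at -0.40, Zfp862-ps at -0.37, Zfp212 at -0.23, Zfp956 at -0.20, Zfp777 at -0.18, Zfp282 at -0.15 and Zfp398 at 0.12. The 7 other tested genes between its ends had a median of -0.07, with 3 above 0 and 4 below. Transcripts of this cluster had a median GC of 55.0%, and after removal of the GC trend its median was -0.21. The cluster with the highest median was on chromosome 13, from 67121660 to 67755228, where 7 of 8 members, all KRAB genes, lay above 0 with a median of 0.34. Zfp874a and its neighbor Zfp874b had the largest values, 0.55 and 0.51, and Zfp87 the smallest at -0.13. The 6 other tested genes between its ends had a median of 0.01, with 3 above 0 and 3 below. Without WT control replicate 3, and likewise with the replicate number as a block, 5 of the 8 members lay above the median of all genes, and 6 did without replicate 2 labelled skmNrip1-/-. Here the median GC was 39.5%, the GC-adjusted median was 0.22, and the members shared a median of 18.8% of their 31-base words with other genes. Leaving out each library in turn gave medians from 0.23 to 0.48 for this cluster, with the lowest without WT control replicate 1, and from -0.32 to -0.24 for the cluster on chromosome 6. On chromosome 8, from 69209038 to 69791178, all 5 KRAB members lay above 0, from Zfp866 at 0.02 to Zfp963 at 0.36, with a median of 0.29. The 4 other tested genes between its ends had a median of -0.22, with 3 below 0. After removal of the GC trend the median of the members was 0.16, and 4 of the 5 lay above the median of all genes, as they did without WT control replicate 1 or 3, without replicate 2 labelled skmNrip1-/- and with the block. Their unadjusted median was 0.15 without WT control replicate 3 and 0.17 without WT control replicate 1. The clusters were described in this way after their values were seen, and neighbors share base composition and sequence, so their members are not independent.

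**Figure D5:**
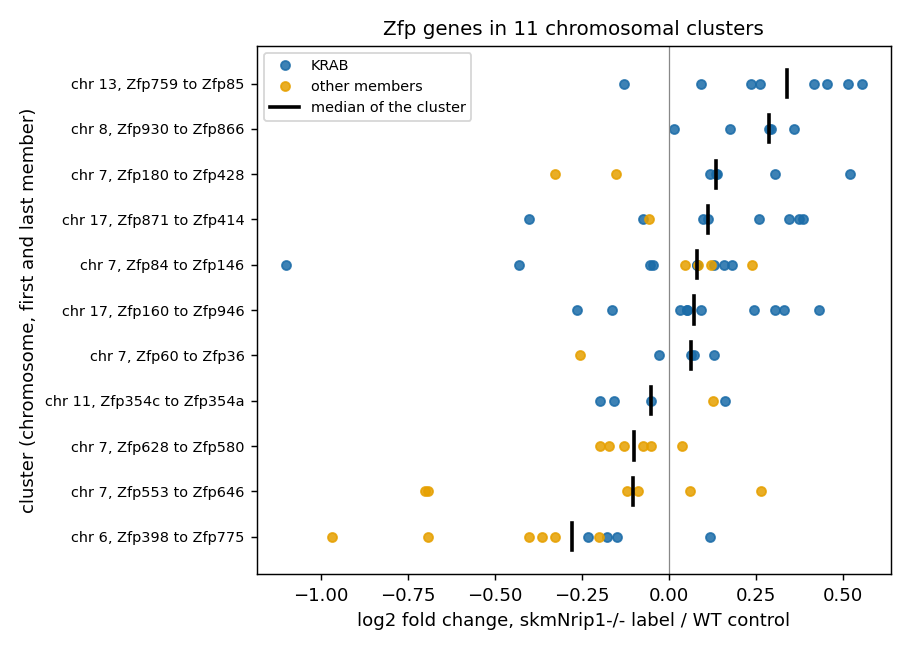
Log2 fold change (x axis) of each Zfp gene that met the level threshold, in the 11 clusters of at least 5 members. Each cluster has 1 row with its chromosome and its first and last gene, ordered by the median (black bar). The lowest row is the cluster on chromosome 6 with a median of -0.28 and the highest the cluster on chromosome 13 with a median of 0.34.

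Close copies limit how far single values can be read. For 75 of the 246 genes at least 5% of the 31-base words of the longest transcript occur in another gene, and 63 of these 75 are KRAB genes. The share reached 20% in 43 genes, 50% in 17 and 80% in 7. Of the 43 genes 38 were KRAB genes, as were all 17 and all 7, with Zfp967 among the last. The 171 genes under 5% had a median difference of -0.01, against 0.05 for all 246. Of the genes described above, the share was 42.2% in Zfp963, 29.7% in Zfp982, 28.8% in Zfp93, 27.3% in Zfp773, 24.6% in Zfp28, 17.1% in Zfp566 and 16.4% in Zfp874a. In Zfp503, Zfp467, Zfp707, Zfp46 and Zfp451 it was under 5%, and in Zfp771 it was 0%. Exons of another gene covered at least 20% of the exon bases of 14 members, on the opposite strand in 10 of them.

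Promoter sequences were searched for 3 short runs of letters. RefSeq gives a window from 250 bases before to 50 bases after the start for 202 of the 246 genes (GRCm38.p6). The letters ACTACA followed after 3 bases by CCC, searched on both strands and known as part of a site bound by Zfp143 and its human counterpart, were in a window of 41 of the 202 (20.3%), against 650 of 27025 genes with a window (2.41%). They were in 29.1% of KRAB genes and in 11.8% of the other C2H2 genes. Neighboring copies share promoter sequence, so these genes are not independent counts. The 27025 genes, unlike the members, were not filtered by level, and the median GC of their windows was 52.7% against 56.3% in the members. The median log2 fold change of the members was 0.13 with the letters and 0.04 without. With and without the letters it was 0.14 and 0.11 in KRAB genes, and 0.05 and -0.04 in the other C2H2 genes. Of the 18 genes at an unadjusted p of 0.05 or less, 5 hold the letters, 3 with higher and 2 with lower values under the knockout label. For these 5 the 100 bases around the match are printed in the direction of the gene, with the match or its reverse complement in capitals, from chr7:6383129-6383228 (plus strand), chr13:67451602-67451701 (minus strand), chr7:24270302-24270401 (plus strand), chr7:7136762-7136861 (minus strand) and chr7:30090531-30090630 (minus strand) in this order.
Zfp28: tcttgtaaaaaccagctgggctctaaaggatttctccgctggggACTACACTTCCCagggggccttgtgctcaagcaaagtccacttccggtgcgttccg
Zfp874a: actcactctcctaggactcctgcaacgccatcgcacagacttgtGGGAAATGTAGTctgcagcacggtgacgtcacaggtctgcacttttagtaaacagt
Zfp93: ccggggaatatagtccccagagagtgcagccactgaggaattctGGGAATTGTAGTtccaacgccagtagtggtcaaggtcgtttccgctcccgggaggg
Zfp773: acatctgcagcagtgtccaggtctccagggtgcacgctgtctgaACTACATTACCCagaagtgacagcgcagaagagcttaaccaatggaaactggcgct
Zfp566: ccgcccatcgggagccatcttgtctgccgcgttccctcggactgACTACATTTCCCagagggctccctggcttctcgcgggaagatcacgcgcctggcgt
Zfp28, Zfp773 and Zfp566 hold the letters in the direction of the gene, and Zfp874a and Zfp93 hold the reverse complement. Zfp566 and Zfp28 stood near opposite ends of the 18 genes, at -1.10 and 0.66 on the log2 scale. The letters AAGGTCA, the core bound by estrogen-related receptors, with which RIP140 interacts, were in 7 of the 202 genes (3.47%) against 5.38% of all genes, none of them among the 18. The letters AA, any base and then ATGGCG, the core bound by YY1, were in 16 (7.92%) against 2.76%, among them Zfp668 and Zfp512b. A match of letters is a description of the sequence and no measure of binding.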

How the data were processed

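Per the labels, RNA of TA muscle was sequenced in 3 WT control and 2 skmNrip1-/- libraries, grouped here by those labels. The authors quantified 150-base paired reads on mm10 with Salmon and deposited FPKM per gene and library, and how the FPKM were computed is not given in the sources used here. Salmon 1.10.2 and DESeq2 1.44.0 are named in the submitters' processing notes. Depth is unknown, since the values are not counts. The table also holds 2 columns of the authors' own comparison, the log2 ratio and the adjusted p-value that the authors deposited, which were not used. Strand handling is not given in the sources used here.

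Groups were compared with limma 3.58.1 in R 4.3.3 (lmFit, eBayes with trend, 2-sided) on log2(FPKM + 0.1), a scale that understates the change of low genes, over 12148 genes whose mean reached 0.5 FPKM. P-values were adjusted by the Benjamini-Hochberg method over all of them. Samples are single libraries, and nothing in the labels says which mouse each came from, so p-values measure the spread between these libraries. No covariates were used. Alternatives were other pseudocounts, filters, scalings, eBayes settings and member limits, a replicate block, leaving out each library, and a lowess GC adjustment with a span of 0.3. Python 3.11.15 (numpy 2.4.6, scipy 1.17.1, pandas 2.3.3) made the tables and matplotlib 3.10.9 the plots. Classes, transcript GC and shared words came from GENCODE M21 (all 246 genes matched), promoters from RefSeq.

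The members, lists and tests were chosen with earlier results of these data known. Named genes were the 5 with the highest mean, up to 10 per direction with an unadjusted p of 0.05 or less and no overlap, the 3 nearest the threshold on each side, the 3 with the widest control range, members of the role lists, and the ends of each partner list. Cnot2, Pprc1, Trim28, Setdb1, Chd4, Egr1, Ier3, Zfp292, Gm20422, Actn3, Myh1 and cluster members beyond this rule were added after their values were seen. Markers of endothelium, macrophage, fibroblast, Schwann and satellite cells were also summed, and their ranges overlapped between groups with none at an unadjusted p of 0.05 or less.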

Additional observations from a re-analysis of the deposited data

How the results depend on the processing

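The count of called Zfp genes stayed at 0 in both directions under every alternative run. Rescaling to TPM, which moved all genes by a median of -0.29, gave 0 higher and 53 lower (0% and 21.5%, beside 1.30% and 29.5% of all 11913 genes tested on that scale) at an unadjusted p of 0.05 or less, 1 and 109 without overlap (0.407% and 44.3%, beside 2.74% and 50.04% of all), and medians of -0.24 in all members, -0.18 in KRAB genes and -0.33 in the other C2H2 genes. Removing the GC trend gave medians of -0.021 in all members and 0.011 in KRAB genes. Of the 246 members, 75 lay under 2 FPKM. The rest gave 6 higher and 6 lower at an unadjusted p of 0.05 or less, beside 6.57% and 5.33% of all genes. They gave 23 higher and 26 lower without overlap, beside 15.8% and 14.4% of all genes. Members with under 5% of shared words had a median of -0.0064. Of the 18 genes at an unadjusted p of 0.05 or less, 14 kept it after the GC adjustment and 10 on the TPM scale, and all 18 kept their sign under every setting run. Leaving out each library in turn gave 1 to 15 members higher and 5 to 13 lower at an unadjusted p of 0.05 or less, the fewest higher without replicate 2 labelled skmNrip1-/- and the most without WT control replicate 2. It gave 43 to 76 higher and 43 to 66 lower without overlap, a count that grows as libraries are left out, and medians from 0.02 to 0.08 in all members, 0.05 to 0.16 in KRAB genes and -0.057 to -0.0090 in the other C2H2 genes. Where 1 library labelled skmNrip1-/- was left, it was assumed to vary like the controls. The difference of Nrip1 was 1.74 to 2.09 in these fits, with adjusted p-values above 0.05 without WT control replicate 3 (0.114) or either library labelled skmNrip1-/- (0.189 and 0.143), and it was 1.94 (adjusted p = 0.0769) in eBayes without the trend. The cause of these shifts was not tested.

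The groups share replicate numbers 1 and 2, which come from different mice. Deviations of same-numbered libraries correlated at 0.065 and 0.095. The 2 libraries labelled skmNrip1-/- deviate from their mean by opposite amounts, so different-numbered pairs hold mirrored values of -0.065 and -0.095. This check cannot decide whether the numbers pair the libraries, and the main fit did not pair them. With the replicate number as a block, 12 of the 18 genes kept an unadjusted p of 0.05 or less, the median of all members was 0.02, and Nrip1 differed by 1.98 (adjusted p = 0.128).

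Depth is unknown, the knockout label stands on 2 libraries, and the median SE of a Zfp gene, 0.18 on the log2 scale, was larger than the median size of its difference, 0.14.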
